A study of Mus musculus with 10 samples.

Results

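The aminoacyl-tRNA synthetase genes were followed in mouse cortical neurons that received BDNF, a neurotrophin, with or without added H2BE, a variant of histone H2B. The genes were taken by symbol from the deposited normalized table: the names from Aars to Yars with or without a final 1 or 2, and Farsa, Farsb, Ears2 and Pars2. This rule found 37 of the 21862 genes in that table, and the count table holds 48526 genes. Of the 37, 20 encode cytosolic enzymes and 17 encode mitochondrial ones. Gars1 and Kars1, counted here as cytosolic, also give rise to the mitochondrial glycyl- and lysyl-tRNA synthetases. All 37 genes passed the filter on low counts, which kept 13452 genes.

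Aminoacyl-tRNA synthetases join each amino acid to its tRNA and so supply the ribosome with its substrates. Cytosolic and mitochondrial protein synthesis use separate sets of these enzymes, and nearly all mitochondrial forms are made from nuclear genes of their own. In mammalian cells many cytosolic synthetase genes are targets of ATF4, a transcription factor whose translation increases when the initiation factor eIF2 is phosphorylated, and several cytosolic enzymes are held together in the multisynthetase complex.

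Neurons were dissected from the cortex of C57BL/6J embryos (E16.5), and every group was given 0.5 µM AraC, which kills dividing cells. The H2BE+BDNF group carried a lentivirus that expresses H2BE from a constitutively active promoter and was treated with BDNF. The H2BE group carried the same virus without BDNF. The BDNF group was wild type, carried a control lentivirus and was treated with BDNF, and the Control group carried the control lentivirus alone. RNA was taken 24 h after BDNF. Neither the BDNF dose nor the content of the control virus is stated in the labels.

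The files hold 10 polyA RNA libraries, 3 each for BDNF and Control and 2 each for H2BE+BDNF and H2BE. In BDNF and in Control, replicate 3 held a subset of the counts of replicate 1: it had 61.9% and 73.7% of that library's total and exceeded it at 0 genes. Each such pair was counted as 1 sample, represented by the larger library, which left 8 distinct libraries, 2 per group, with totals of 5058074 to 14142545 counts. No label says that libraries of a group came from separate cultures or animals, so p-values measure the spread between these libraries, which may be technical. H2bc21, the gene that encodes H2BE, was at 32.1 and 35.2 CPM (counts scaled by library size) in H2BE+BDNF neurons, 42.9 and 35.7 CPM in H2BE neurons, 3.69 and 4.07 CPM in BDNF neurons and 5.19 and 5.24 CPM in Control neurons. All 8 neuronal marker genes were present, with a summed level of 5401 to 5846 CPM. Of these 8, 2 were called higher and 5 lower in H2BE+BDNF against H2BE, and 2 higher and 4 lower in BDNF against Control. Of all genes tested, 13.4% were called higher and 12.3% lower in the first comparison, and 16.8% and 14.6% in the second. Summed levels of 8 microglial markers were 23.1 to 23.7 CPM in H2BE+BDNF, 5.36 to 8.07 CPM in H2BE, 24.2 to 24.7 CPM in BDNF and 10.7 to 11.4 CPM in Control. The sums of 7 oligodendrocyte-lineage markers were 90.7 to 95.7 CPM in H2BE+BDNF, 52.6 to 57.8 CPM in H2BE, 84.6 to 93.6 CPM in BDNF and 51.7 to 56 CPM in Control. For 4 genes of dividing cells they were 3.23 to 3.6 CPM in H2BE+BDNF, 1.98 to 2.27 CPM in H2BE, 3.95 to 4.48 CPM in BDNF and 1.47 to 1.75 CPM in Control. Those of 5 endothelial and mural markers were 31.3 to 33.2 CPM in H2BE+BDNF, 23.7 to 25.4 CPM in H2BE, 25 to 26.9 CPM in BDNF and 24.2 to 24.3 CPM in Control. Those of 6 astrocyte markers were 44 to 45.1 CPM in H2BE+BDNF, 49.4 to 54.7 CPM in H2BE, 50.7 to 86.6 CPM in BDNF and 50.2 to 61 CPM in Control. No marker of these 5 lists was at 0 in all libraries, and the part of these cells in the results below was not tested. In bulk RNA, fewer cells of a type and less RNA per cell cannot be told apart.

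Most cytosolic synthetase genes were more abundant than the mitochondrial ones, apart from Lars2. In Control neurons the level per kb of transcript ran from 16.6 CPM per kb for Tars1 to 158 CPM per kb for Gars1 among the 20 cytosolic genes, with a median of 48.4. Among the 17 mitochondrial genes it ran from 1.18 CPM per kb for Wars2 to 93.2 CPM per kb for Lars2, with a median of 6.25. Lars2, the mitochondrial leucyl-tRNA synthetase, ranked 3 of 37 in Control. The next mitochondrial gene, Rars2 (arginine), was at 18.3 CPM per kb and ranked 20, above the cytosolic genes Vars1 and Tars1. Yars1, Aars1, Hars1, Sars1 and Wars1, ranked 4 to 8, lay between 75.9 and 81.2 CPM per kb in Control. Median levels per kb of the cytosolic genes were 55.1 in H2BE+BDNF, 46.9 in H2BE, 55.1 in BDNF and 48.4 in Control. Those of the mitochondrial genes were 6.55 in H2BE+BDNF, 6.38 in H2BE, 6.25 in BDNF and 6.25 in Control. Lars2 ranked 3 in H2BE+BDNF and H2BE as well, and 10 in BDNF. The length is that of 1 annotated principal transcript per gene, so a gene such as Mars2, whose annotated transcript is 11.29 kb, may use a shorter form and then rank higher.

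**Figure D1:**
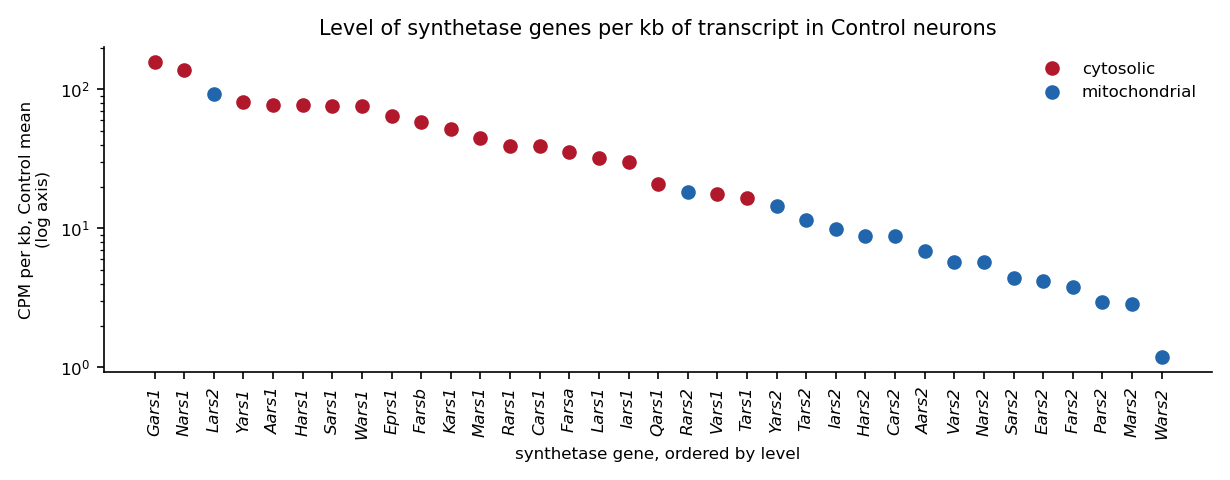
Level of 35 synthetase genes in Control neurons, as the mean CPM of 2 libraries per kb of transcript on a log axis, ordered from high to low and coloured by form. All mitochondrial genes shown except Lars2, at 93.2 CPM per kb, lay at or below 18.3 CPM per kb.

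With BDNF the summed level of the cytosolic synthetases was higher under both viruses. It was 3860 and 4028 CPM in H2BE+BDNF neurons, against 3272 and 3320 CPM in H2BE neurons. Under the control virus it was 4130 and 4142 CPM in BDNF neurons, against 3515 and 3473 CPM in Control neurons. The groups did not overlap in either pair. The 16 mitochondrial genes other than Lars2 summed to 349 and 324 CPM in H2BE+BDNF, 348 and 334 CPM in H2BE, 352 and 328 CPM in BDNF, and 353 and 339 CPM in Control, so all groups overlapped. The marker sums of microglia, the oligodendrocyte lineage, endothelial and mural cells and dividing cells given above were also higher in both BDNF groups. Of the 4 microglial markers tested, 2 were called higher under the H2BE virus and 1 under the control virus. Of 7 oligodendrocyte-lineage markers, 1 was called higher under each. For 2 tested endothelial and mural markers the counts were 1 and 0, and for 2 tested genes of dividing cells 1 and 2. Of all genes, 13.4% and 16.8% were called higher. Lars2 alone made up 37.3% to 57.6% of the mitochondrial sum. The ratio of the cytosolic sum to this mitochondrial sum without Lars2 was 11.05 and 12.41 in H2BE+BDNF and 9.40 and 9.95 in H2BE. It was 11.74 and 12.64 in BDNF and 9.95 and 10.23 in Control.

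**Figure D2:**
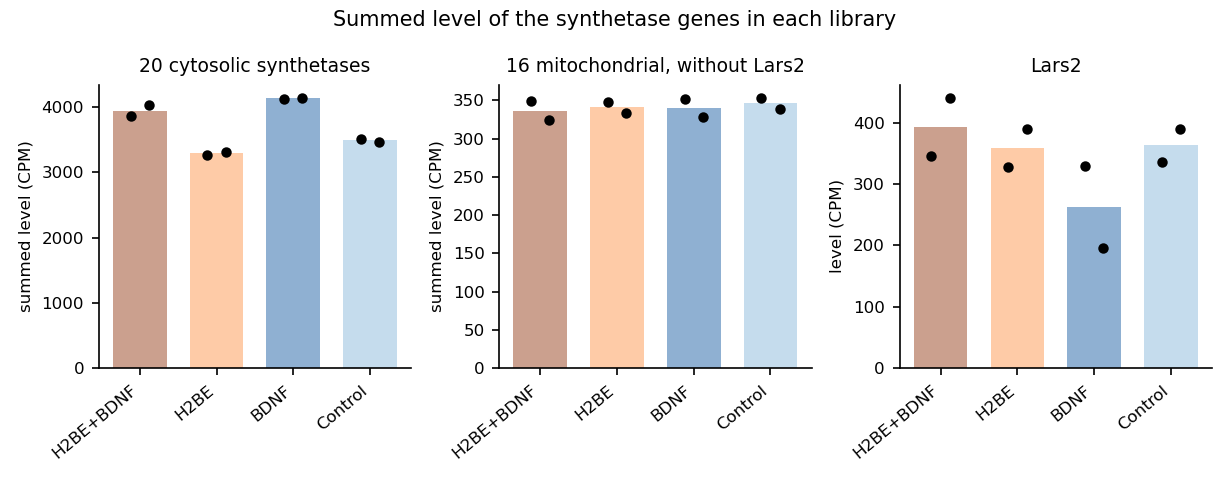
Summed CPM of the 20 cytosolic synthetase genes, of the 16 mitochondrial genes other than Lars2, and the CPM of Lars2, in each of the 8 libraries (points) with the group mean (bars). Cytosolic sums lay at 3860 to 4142 CPM in the 4 libraries with BDNF and at 3272 to 3515 CPM in the 4 without, while the mitochondrial sums overlapped.

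Under the control virus, 12 of the 20 cytosolic genes rose with BDNF and 0 fell, as called by edgeR's quasi-likelihood test at a Benjamini-Hochberg adjusted p of 0.05 over all genes tested. Among all 13452 genes, 16.8% were called higher and 14.6% lower in this comparison. By DESeq2, 11 of the 20 were called higher. The median log2 fold change of the cytosolic genes was 0.224 (range -0.12 to 0.54, median SE 0.063), against -0.010 over all genes tested, and 18 of 20 were above 0. At an unadjusted p of 0.05, 13 were higher and 0 lower, against 2838 and 2684 of all 13452 genes.

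Under the H2BE virus, 9 of the 20 cytosolic genes rose with BDNF and 0 fell, where 13.4% of all genes were called higher and 12.3% lower. DESeq2 called 8 of them higher. The median log2 fold change was 0.180 (range -0.14 to 0.53, median SE 0.068), against 0.000 over all genes, and again 18 of 20 were above 0. At an unadjusted p of 0.05, 15 were higher and 1 lower, against 2549 and 2394 of all 13452 genes. Without H2BE replicate 2 the count was 5. Libraries of the 2 groups did not overlap, with BDNF higher, for 17 of the 20 genes under the H2BE virus (32.1% of all genes) and for 15 of the 20 under the control virus (31.2% of all genes).

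In both comparisons 8 cytosolic genes were called higher: Eprs1, Gars1, Iars1, Kars1, Nars1, Rars1, Sars1 and Tars1. Another 4 were called only under the control virus (Aars1, Qars1, Vars1 and Wars1), 1 only under the H2BE virus (Cars1), and 7 in neither, among them Farsa, Farsb, Mars1 and Yars1. Of all genes tested, 13.4% were called higher under the H2BE virus and 16.8% under the control virus. The share of all genes called higher in both was not counted. The 2 comparisons share no libraries, but their spread was estimated together in 1 fit. A gene called in one and not in the other was not thereby shown to differ between the viruses, and the test of that difference is given below.

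**Figure D3:**
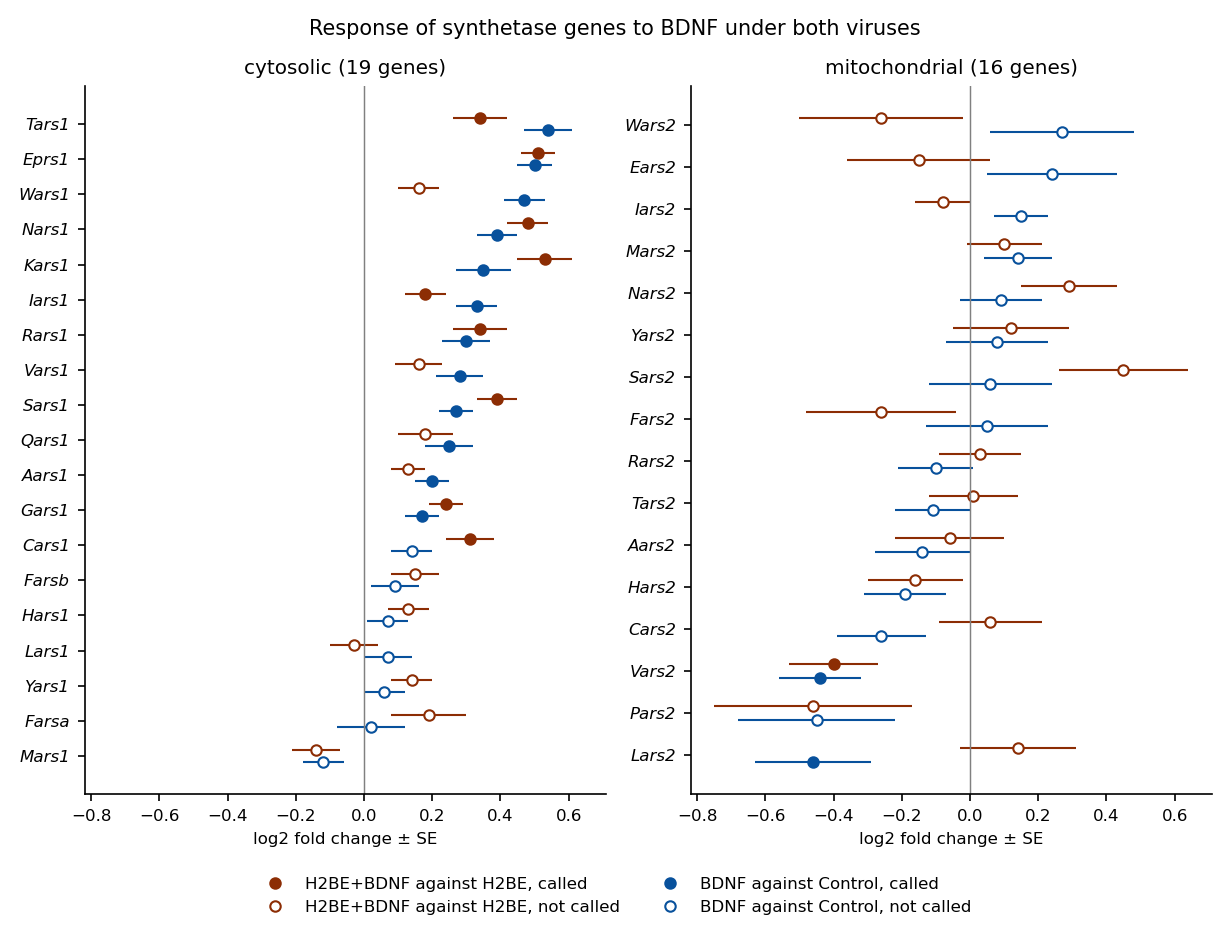
Log2 fold change with its SE for 35 synthetase genes in H2BE+BDNF against H2BE and in BDNF against Control, cytosolic genes on the left and mitochondrial genes on the right, with filled points for genes called at an adjusted p of 0.05 (edgeR). Most cytosolic points lie right of 0 in both comparisons, while mitochondrial points scatter about 0 with wider errors.

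Tars1 (chr15:11382301-11399665, minus strand), the threonyl-tRNA synthetase, showed the largest log2 fold change of the 37 genes under the control virus. It was at 98.7 and 93.5 CPM in BDNF neurons and at 64.3 and 68.5 CPM in Control neurons, a log2 fold change of 0.54 ± 0.07 (SE, adjusted p = 4.04e-05, edgeR). Under the H2BE virus it was at 82.2 and 87.5 CPM with BDNF and at 64.2 and 70.1 CPM without (0.34 ± 0.08, adjusted p = 0.00532, edgeR). In each pair both BDNF libraries lay above both others. Leaving out H2BE replicate 2 (0.27) or H2BE+BDNF replicate 3 (0.30) ended the call under the H2BE virus.

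Eprs1 (chr1:185363044-185428360, plus strand) encodes the bifunctional enzyme that charges both glutamate and proline tRNAs and belongs to the multisynthetase complex. It was at 421 and 427 CPM in H2BE+BDNF, 293 and 305 CPM in H2BE, 430 and 458 CPM in BDNF and 314 and 315 CPM in Control. Its rise was nearly the same under both viruses, at 0.51 ± 0.05 for H2BE+BDNF against H2BE and 0.50 ± 0.05 for BDNF against Control (adjusted p = 4.19e-06 and 2.32e-06, edgeR). No library with BDNF overlapped one without.

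Nars1, the asparaginyl-tRNA synthetase, was at 442 and 494 CPM in H2BE+BDNF, 334 and 338 CPM in H2BE, 495 and 502 CPM in BDNF and 388 and 374 CPM in Control. It rose by 0.48 ± 0.06 under the H2BE virus and 0.39 ± 0.06 under the control virus (adjusted p = 1.63e-05 and 6.39e-05, edgeR). Kars1 (chr8:111993443-112011323, minus strand), the lysyl-tRNA synthetase of cytosol and mitochondria, was at 147 and 151 CPM in H2BE+BDNF, 111 and 94.9 CPM in H2BE, 132 and 139 CPM in BDNF and 113 and 96.6 CPM in Control. Its log2 fold changes were 0.53 ± 0.08 and 0.35 ± 0.08 (adjusted p = 0.000259 and 0.00297, edgeR), and Kars1 had the largest change of the 37 genes under the H2BE virus. For both genes all libraries with BDNF lay above all without.

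Sars1, the seryl-tRNA synthetase, was at 314 and 324 CPM in H2BE+BDNF, 237 and 251 CPM in H2BE, 321 and 336 CPM in BDNF and 276 and 268 CPM in Control (log2 fold changes 0.39 ± 0.06 and 0.27 ± 0.05, adjusted p = 9.1e-05 and 0.00119, edgeR). Eprs1, Kars1, Nars1 and Sars1 were called in both comparisons under all 17 alternative analyses that were run. Rars1 (arginine), a member of the multisynthetase complex, rose by 0.34 ± 0.08 under the H2BE virus and by 0.30 ± 0.07 under the control virus. The first call ended when H2BE replicate 2 (0.24) or H2BE+BDNF replicate 3 (0.27) was left out, and the second without Control replicate 1 (0.24).

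Wars1 (chr12:108860030-108894174, minus strand), the tryptophanyl-tRNA synthetase, was at 189 and 195 CPM in BDNF neurons, against 141 and 136 CPM in Control neurons (0.47 ± 0.06, adjusted p = 1.1e-05, edgeR). Under the H2BE virus it was at 165 and 168 CPM with BDNF and at 150 and 147 CPM without (0.16 ± 0.06, adjusted p = 0.0544, edgeR). The difference between the BDNF responses of Wars1, H2BE virus minus control virus, was -0.30 ± 0.08 (adjusted p = 0.0883, edgeR). It did not pass the threshold, except without BDNF replicate 1 (-0.32, adjusted p = 0.026, edgeR) and with all 10 libraries counted as replicates (-0.30, adjusted p = 0.0144, edgeR).

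Iars1 (isoleucine) rose by 0.33 ± 0.06 under the control virus, at 165 and 170 CPM with BDNF against 130 and 136 CPM in Control. Under the H2BE virus it was at 157 and 161 CPM with BDNF and at 140 and 141 CPM without (0.18 ± 0.06, adjusted p = 0.0382, edgeR). That second call was lost in 10 of 17 alternatives, among them every one that left out a library of H2BE+BDNF, H2BE or Control (0.16 to 0.20). Gars1 (chr6:55038007-55079500, plus strand), the glycyl-tRNA synthetase of cytosol and mitochondria, rose by 0.24 ± 0.05 under the H2BE virus, where it was at 384 and 388 CPM with BDNF and at 321 and 332 CPM without. Under the control virus it was at 423 and 420 CPM with BDNF, against 376 and 376 CPM in Control (0.17 ± 0.05, adjusted p = 0.0156, edgeR), a call lost without Control replicate 1 (0.16), without Control replicate 2 (0.16) and with replicates 2 and 3 alone, with or without a replicate block (0.11).

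The remaining called cytosolic genes were each called under 1 virus. Vars1 (valine) rose by 0.28 ± 0.07, Qars1 (glutamine) by 0.25 ± 0.07 and Aars1 (alanine) by 0.20 ± 0.05 under the control virus. The Vars1 call was lost without Control replicate 1 (0.27) and under a replicate block with replicates 2 and 3 (0.21), the Qars1 call by DESeq2 (0.26) and without Control replicate 1 (0.29) or replicate 2 (0.22), and the Aars1 call without Control replicate 2 (0.17). Cars1 (cysteine) rose by 0.31 ± 0.07 under the H2BE virus, at 141 and 141 CPM with BDNF against 112 and 116 CPM without, and this call was lost without H2BE replicate 2 (0.27). Of the 7 cytosolic genes called in neither comparison, log2 fold changes ran from -0.14 to 0.19 under the H2BE virus and from -0.12 to 0.09 under the control virus. Mars1, the methionyl-tRNA synthetase, was the one with negative values in both, at 110 and 117 CPM in H2BE+BDNF, 126 and 124 CPM in H2BE, 119 and 124 CPM in BDNF and 136 and 127 CPM in Control (-0.14 ± 0.07 and -0.12 ± 0.06, adjusted p = 0.135 and 0.175, edgeR). Farsa and Farsb, the 2 subunits of the cytosolic phenylalanyl-tRNA synthetase, had 0.19 ± 0.11 and 0.15 ± 0.07 under the H2BE virus and 0.02 ± 0.10 and 0.09 ± 0.07 under the control virus.

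**Figure D4:**
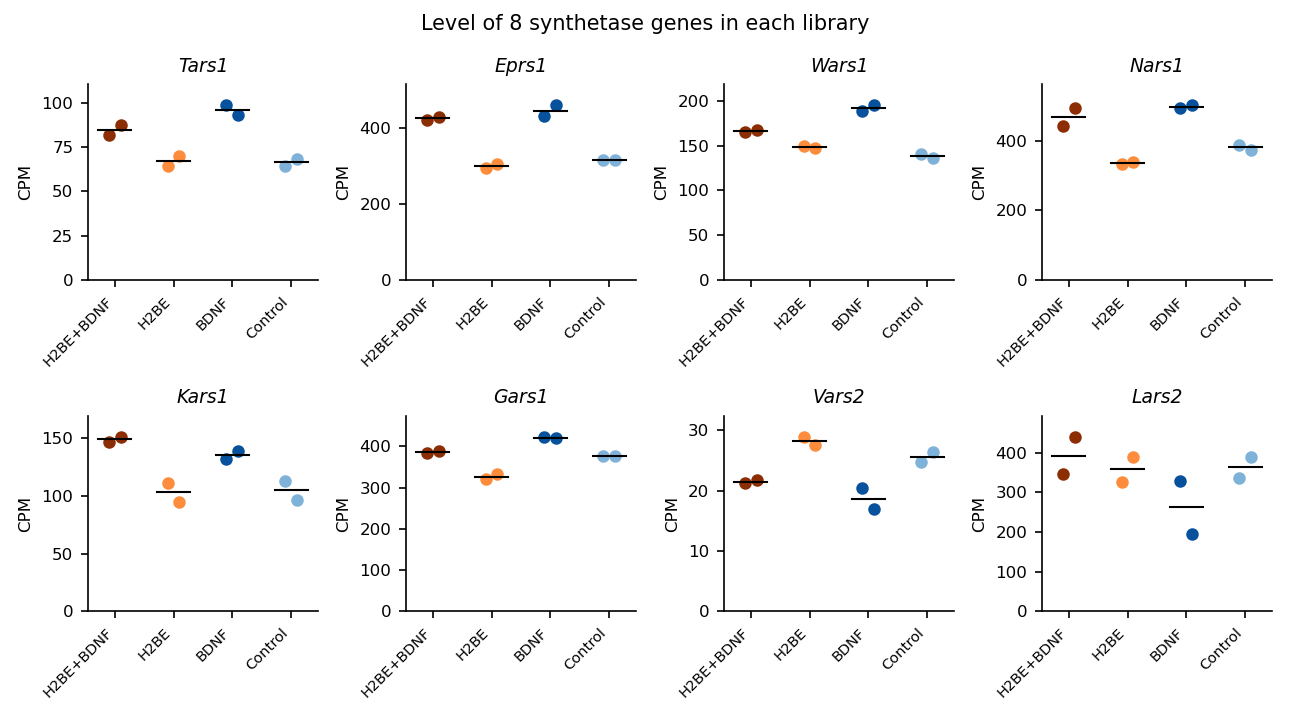
CPM of 6 cytosolic genes and the mitochondrial genes Vars2 and Lars2 in each of the 8 libraries (points) with the group mean (lines), by group. Both BDNF groups lie above their counterparts for the cytosolic genes, Vars2 lies lower with BDNF, and Lars2 is low in a single BDNF library at 195 CPM.

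The cytosolic genes were also sorted by what their enzymes share. The counts below stand against 13.4% of all genes called higher under the H2BE virus and 16.8% under the control virus. The 8 enzymes of the multisynthetase complex had 4 genes called higher under the H2BE virus (median log2 fold change 0.180) and 5 under the control virus (0.275). The 12 genes outside it had 5 (0.175) and 7 (0.182). Of the 9 class I enzymes, which share a Rossmann-fold catalytic core, 3 genes rose under the H2BE virus and 5 under the control virus. Of the 10 class II enzymes, built on an antiparallel sheet, 5 and 6 genes rose. Eprs1 has a domain of each class and is in neither count. A list of 13 cytosolic genes as ATF4 targets was written from general knowledge, with earlier results of these data known. Of these 13, 7 rose under the H2BE virus (median 0.180) and 9 under the control virus (0.269). Of the other 7 cytosolic genes, 2 (0.180) and 3 (0.092) rose. No test was made between these subsets.

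RefSeq promoters (GRCm38.p6, 250 bases before to 50 after a gene's start) were searched for TGATGNAA, the core of the C/EBP-ATF response element that ATF4 can bind, on both strands. Of the cytosolic genes 13 had an entry and 5 of them (38.5%) held these letters. Of the mitochondrial genes 14 had an entry and 0 held them. By comparison, 4.51% of all 27025 genes in the promoter table held them. Of the 8 cytosolic genes with an entry that were called higher in BDNF against Control, 4 held the letters, and of the 5 not called, 1 did. CACGTG, an E-box that is its own reverse complement, was in 4 of 13 cytosolic (30.8%), 1 of 14 mitochondrial (7.14%) and 8.09% of all genes. A match describes the sequence and shows neither a bound site nor a cause. For each of the 5 genes 1 match is shown with 15 bases on each side, 5′ to 3′ on the strand of the gene, with the motif (TGATGNAA or its reverse complement TTNCATCA) in capitals.
Aars1, chr8:111033836-111033873, plus strand: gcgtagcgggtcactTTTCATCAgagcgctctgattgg
Gars1, chr6:55037956-55037993, plus strand: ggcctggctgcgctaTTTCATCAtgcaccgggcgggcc
Iars1, chr13:49682122-49682159, plus strand: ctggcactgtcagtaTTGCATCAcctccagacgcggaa
Tars1, chr15:11399651-11399688, minus strand: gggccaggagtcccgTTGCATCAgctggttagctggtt
Yars1, chr4:129189891-129189928, plus strand: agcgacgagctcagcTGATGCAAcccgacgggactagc
In 4 of these 5 genes the letters shown read TTNCATCA along the gene's strand, and in Yars1 they read TGATGCAA. Aars1, Gars1, Iars1 and Tars1 were called higher in BDNF against Control. Yars1, the tyrosyl-tRNA synthetase, was not, at 255 and 239 CPM in BDNF against 232 and 241 CPM in Control (0.06 ± 0.06, adjusted p = 0.418, edgeR). The promoter of Tars1, the gene with the largest change under the control virus, is given whole with the same letters in capitals.
Tars1, chr15:11399609-11399908, minus strand: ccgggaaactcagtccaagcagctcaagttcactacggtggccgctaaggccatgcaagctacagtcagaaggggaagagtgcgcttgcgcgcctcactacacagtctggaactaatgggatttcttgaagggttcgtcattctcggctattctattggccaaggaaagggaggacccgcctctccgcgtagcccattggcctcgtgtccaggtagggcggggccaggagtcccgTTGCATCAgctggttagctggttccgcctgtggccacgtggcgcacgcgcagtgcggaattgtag
It also holds 1 CACGTG, as did the promoters of Aars1, Iars1 and Farsb.

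With the control virus 0 of 17 mitochondrial genes were called higher and 2 lower by edgeR, where 16.8% of all genes were called higher and 14.6% lower. Under the H2BE virus 0 were called higher and 1 lower, where 13.4% of all genes were called higher and 12.3% lower. A count of 2 or 1 of 17 called lower is near or under these shares. DESeq2 called 0 in either direction in both comparisons. At an unadjusted p of 0.05, 1 was higher and 1 lower under the H2BE virus, and 0 were higher and 2 lower under the control virus. Of all 13452 genes, 2549 were higher and 2394 lower at that p under the H2BE virus, and 2838 and 2684 under the control virus. Median log2 fold changes were 0.011 under the H2BE virus (range -0.46 to 0.45) and -0.104 under the control virus (-0.46 to 0.27), and both change sign when 1 library is left out. The value under the control virus was 0.018 without BDNF replicate 2 and 0.026 without Control replicate 1, and the value under the H2BE virus was -0.077 when H2BE replicate 3 was left out and -0.069 when H2BE+BDNF replicate 2 was. Without Lars2 the medians of the other 16 genes were -0.023 under the H2BE virus and -0.028 under the control virus. The median SE was 0.152 and 0.133, about that of all genes (0.128 and 0.114) and larger than for the cytosolic genes. Mitochondrial genes other than Lars2 had at most 780 counts in any library. A change as small as the cytosolic median was therefore hard to detect in most single mitochondrial genes at this depth.

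Vars2 (chr17:35655634-35667592, minus strand), the mitochondrial valyl-tRNA synthetase, was the gene called lower in both. It was at 21.2 and 21.8 CPM in H2BE+BDNF and at 28.9 and 27.6 CPM in H2BE (-0.40 ± 0.13, adjusted p = 0.0298, edgeR). Under the control virus it was at 20.4 and 16.9 CPM with BDNF and at 24.7 and 26.4 CPM in Control (-0.44 ± 0.12, adjusted p = 0.0089, edgeR). All libraries with BDNF lay below all without. By DESeq2 neither passed the threshold (adjusted p = 0.163 and 0.0885). The call under the H2BE virus was lost in 8 of 17 alternatives, including each one that left out a library of H2BE+BDNF or H2BE (-0.37 to -0.43), and the call under the control virus was lost without BDNF replicate 2 (-0.30). Its cytosolic counterpart Vars1 had 0.16 ± 0.07 and 0.28 ± 0.07 in the same comparisons.

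Lars2 (chr9:123366927-123462666, plus strand) was at 330 and 195 CPM in BDNF, against 336 and 390 CPM in Control (-0.46 ± 0.17, adjusted p = 0.045, edgeR). The value rests on BDNF replicate 2, the lowest of the 8 libraries. Without that library the log2 fold change was -0.12 (adjusted p = 0.429), and without BDNF replicate 1 it was -0.88. The call was also lost without Control replicate 1 (-0.58), without Control replicate 2 (-0.36) and by DESeq2 (adjusted p = 0.35). Under the H2BE virus Lars2 was at 346 and 440 CPM with BDNF and at 327 and 389 CPM without, and the groups overlapped (0.14 ± 0.17, adjusted p = 0.607, edgeR).

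Among the other mitochondrial genes, Sars2 (serine) had the highest value under the H2BE virus, at 13.6 and 10.8 CPM with BDNF against 9.35 and 8.53 CPM without (0.45 ± 0.19, adjusted p = 0.0994, edgeR). Pars2 (proline) had the lowest, at 4.79 and 2.88 CPM with BDNF against 5.67 and 4.96 CPM without (-0.46 ± 0.29, adjusted p = 0.28, edgeR). It was at 5.32 and 4.39 CPM in BDNF against 7.16 and 5.77 CPM in Control (-0.45 ± 0.23, adjusted p = 0.159, edgeR). With 20 to 102 counts per library, Pars2 was among the shallowest genes of the set. Libraries did not overlap, with BDNF lower, for 4 of 17 mitochondrial genes under the H2BE virus (31.3% of all genes) and for 5 under the control virus (33% of all genes). They did not overlap with BDNF higher for 2 genes in each, against 32.1% of all genes under the H2BE virus and 31.2% under the control virus.

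Cytosolic and mitochondrial enzymes for the same amino acid were set side by side in 18 pairs, in which Eprs1 was paired with both Ears2 and Pars2, and Fars2 with both Farsa and Farsb. The cytosolic gene had the higher log2 fold change in 15 of 18 pairs under each virus, by a median of 0.28 under the H2BE virus and 0.26 under the control virus. The widest gap was Eprs1 over Pars2 (0.96 under the H2BE virus and 0.95 under the control virus). Eprs1 over Ears2 had 0.66 and 0.26, Vars1 over Vars2 had 0.56 and 0.72, and Tars1 over Tars2 had 0.33 and 0.65. The methionine pair ran the other way under both viruses (-0.25 and -0.26). Leucine ran the other way only under the H2BE virus (-0.16, against 0.53 under the control virus, where Lars2 rests on 1 library). Smaller gaps the other way were Sars1 with Sars2 under the H2BE virus (-0.06). Under the control virus they were Farsa with Fars2 (-0.03) and Yars1 with Yars2 (-0.01). Pairs share genes and libraries, so no test was made over them.

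**Figure D5:**
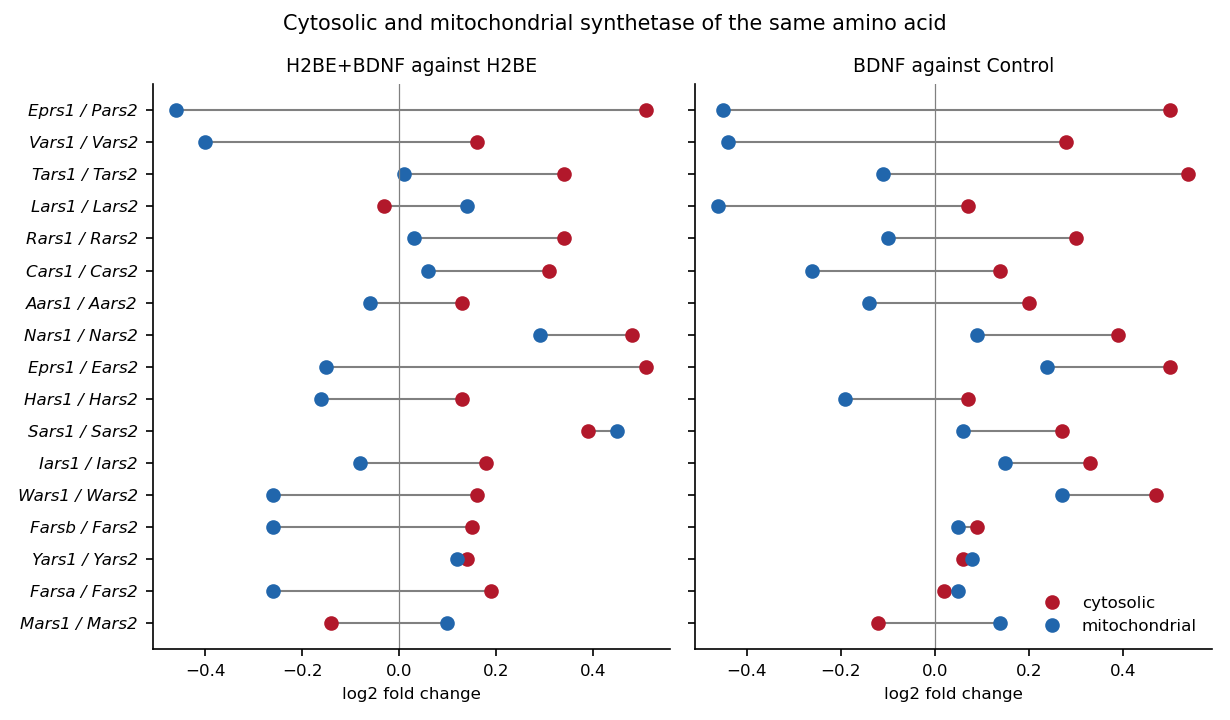
Log2 fold changes of the cytosolic and the mitochondrial synthetase of the same amino acid, joined by a line, in 17 pairs, for H2BE+BDNF against H2BE and BDNF against Control. The cytosolic gene lies to the right in 14 of these 17 pairs in each panel.

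Between H2BE and Control neurons, 1 of the 37 genes passed the threshold. Gars1 was at 321 and 332 CPM in H2BE and at 376 and 376 CPM in Control (-0.20 ± 0.05, adjusted p = 0.0456, edgeR, and 0.0207 by DESeq2), where 2.13% of all genes were called and 0.803% were called lower. This call was lost in 10 of 16 alternatives, including each one that left out a library of H2BE+BDNF, H2BE or Control (-0.17 to -0.23, adjusted p up to 0.402). The cytosolic genes had a median log2 fold change of -0.066 (range -0.20 to 0.10) and 15 of 20 were below 0, against a median of 0.000 over all genes. At an unadjusted p of 0.05, 0 were higher and 3 lower: Gars1, Nars1 (-0.18 ± 0.06) and Sars1 (-0.16 ± 0.06). Of all 13452 genes, 1215 were higher and 1230 lower at that p. The mitochondrial genes had a median of -0.048 (range -0.31 to 0.30), with 0 called by edgeR and 0 at an unadjusted p of 0.05. DESeq2 gave an adjusted p for 2 of these 17 and called 0.

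Between H2BE+BDNF and BDNF, 0 of the 37 genes were called by edgeR, where 0.0223% of all genes (3) were called. DESeq2 gave an adjusted p for 15 of the 37 and called 0. At an unadjusted p of 0.05, 0 cytosolic genes were higher and 3 lower (Gars1 -0.13, Tars1 -0.18 and Wars1 -0.20), and 2 mitochondrial genes were higher (Lars2 0.58 and Sars2 0.51) and 1 lower (Fars2 -0.48). Of all 13452 genes, 636 were higher and 897 lower at that p. Cytosolic log2 fold changes ran from -0.20 to 0.14 with a median of -0.057 and a median SE of 0.064. Lars2 was called without BDNF replicate 1 (1.01), as was Wars1 (-0.23).

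The BDNF response did not differ between the viruses beyond the threshold for any of the 37 genes by edgeR, where 1.15% of all genes were called. DESeq2 gave an adjusted p for 20 of the 37 and called 0. At an unadjusted p of 0.05, 1 cytosolic gene was lower (Wars1, given above) and 1 mitochondrial gene higher (Lars2, 0.60 ± 0.24, adjusted p = 0.221, edgeR). Of all 13452 genes, 1036 were higher and 1212 lower at that p. The cytosolic differences ran from -0.30 to 0.17 with a median of 0.049 and a median SE of 0.093, and the mitochondrial ones from -0.54 to 0.60 with a median SE of 0.202. Without BDNF replicate 1, Lars2 (1.02) and Wars1 (-0.32) were called. The mitochondrial median SE is larger than many of the mitochondrial BDNF responses. The cytosolic one is below the median cytosolic responses (0.180 under the H2BE virus and 0.224 under the control virus). Differences well above these SEs could also go uncalled with 2 libraries a group. That of Wars1, at -0.30 ± 0.08, did not pass (adjusted p = 0.0883, edgeR). A difference as large as the median cytosolic response could therefore go uncalled in a single gene.

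Genes that act upstream of or beside the synthetases were followed as lists. These were written from general knowledge, but with earlier results of these data known, so their counts are not independent support. In the list of eIF2 kinases and the ATF4 pathway, 10 of 18 rose under the H2BE virus and 12 of 18 under the control virus, 0 fell, and the medians were 0.334 and 0.487. Of all genes, 13.4% were called higher and 12.3% lower under the H2BE virus, and 16.8% higher and 14.6% lower under the control virus. Atf4 itself was at 388 and 365 CPM in H2BE+BDNF, 286 and 320 CPM in H2BE, 421 and 399 CPM in BDNF and 322 and 311 CPM in Control (0.32 ± 0.06 and 0.37 ± 0.06, adjusted p = 0.00121 and 0.000179, edgeR). Psat1, an enzyme of serine synthesis, was at 145 and 142 CPM in H2BE+BDNF, 77.8 and 82 CPM in H2BE, 164 and 183 CPM in BDNF and 96.1 and 89.1 CPM in Control (0.85 ± 0.08 and 0.90 ± 0.07). All libraries with BDNF lay above all without for both genes. Asns, the asparagine synthetase that makes the amino acid, rose by 0.35 ± 0.06 and 0.28 ± 0.05, and Slc7a5, the light chain of a transporter of large neutral amino acids, by 0.31 ± 0.06 and 0.52 ± 0.06. The BDNF response was smaller under the H2BE virus than under the control virus for 2 of the 18, Slc7a11 (difference -1.59 ± 0.34, adjusted p = 0.0431, edgeR) and Sesn2 (-0.54 ± 0.12, adjusted p = 0.0449, edgeR). Both calls were lost when any 1 library of H2BE+BDNF, H2BE or Control was left out (-1.78 to -1.32 and -0.65 to -0.46), and with the length and GC correction (adjusted p = 0.215 and 0.22, edgeR), among other alternatives.

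Cytosolic translation factors are read against the same shares of all genes. Of 10 initiation factors and their regulators, 8 rose under the H2BE virus and 4 under the control virus, and 0 fell. Eif4g1, the scaffold of the cap-binding complex, rose by 0.32 ± 0.05 and 0.35 ± 0.05, and Eif4ebp1, a repressor of cap-dependent translation, by 0.72 ± 0.14 and 0.61 ± 0.11. Of 8 elongation factors and regulators, 5 rose and 1 fell under the H2BE virus, and 3 rose and 1 fell under the control virus. The one that fell was Eef2k, the kinase that inhibits Eef2, at 32.2 and 34.6 CPM in H2BE+BDNF, 56.9 and 47.4 CPM in H2BE, 35.1 and 32 CPM in BDNF and 46 and 41.1 CPM in Control (-0.66 ± 0.11 and -0.39 ± 0.10).

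The lists tied to the complex and to mitochondria are short, and their counts stand against the same shares of all genes. Of the 3 scaffold genes of the multisynthetase complex, Eef1e1 rose under the H2BE virus (0.38 ± 0.09, adjusted p = 0.00628, edgeR), and 0 were called under the control virus, with a median of -0.066. Of 10 mitochondrial translation factors, 1 rose under the H2BE virus, Tufm, the mitochondrial elongation factor Tu (0.41 ± 0.09). With the control virus 2 rose, Tufm (0.29 ± 0.08) and Gfm1 (0.28 ± 0.08), and 2 fell, Mtif3 (-0.50 ± 0.14) and Mtrf1 (-0.59 ± 0.19). Mitochondria lack a glutaminyl-tRNA synthetase of their own and make this tRNA through an amidotransferase. Of the 4 genes on the list of that enzyme and methionine formylation, Gatb fell in both, at 11.6 and 12.7 CPM in H2BE+BDNF, 20.4 and 19.3 CPM in H2BE, 14.8 and 15.2 CPM in BDNF and 20.1 and 19.4 CPM in Control (-0.71 ± 0.14 and -0.41 ± 0.12). Of 5 synthetase-like and editing genes, 0 were called in either.

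Some synthetase genes overlap other genes, by whole annotated spans and not by exons. Whether the counting used strand is not known, so reads of such partners cannot be told apart. Iars2 overlaps Rab3gap2 on the opposite strand over 2034 bases, and Rab3gap2 rose by 0.88 under the H2BE virus and 1.06 under the control virus. Iars2 itself was called in neither (-0.08 ± 0.08 and 0.15 ± 0.08). Farsb and Sgpp2 share 2315 bases, Cars2 and Naxd 984, Fars2 and Nrn1 920, Wars1 and Wdr25 544, Hars1 and Hars2 198, and Mars1 and Ddit3 68. Of these partners, Sgpp2 rose under the control virus (1.40, adjusted p = 0.00202, edgeR) and was not called under the H2BE virus. Nrn1, at 61.6 to 113 CPM, rose by 0.62 under the H2BE virus and 0.40 under the control virus, and Ddit3 by 0.49 and 0.73. Naxd was called in neither, nor was Wdr25, at 4.35 to 7.77 CPM. Exosc6, which overlaps the Aars1 gene on the same strand over 1326 bases, was listed at 0 in every library.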

How the data were processed

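RNA of 10 libraries of mouse cortical neurons was sequenced. The authors deposited raw counts per gene, used for every test, and a table of counts divided by size factors (signal values), used only for gene symbols. Per the submitters' processing notes, the build was mm10 and SAMtools, DESeq2 and deepTools were used. Neither the aligner, the counting tool nor the annotation is named in the sources used here. The members and lists were chosen with earlier results of these data known.

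Genes were kept by filterByExpr in edgeR 4.0.16 (minimum count 10, minimum total 15; R 4.3.3, limma 3.58.1), which left 13452 genes with 99.78% of counts. Libraries were scaled by TMM. A quasi-likelihood test was fitted to all 4 groups, with Benjamini-Hochberg adjustment over all genes tested within each comparison and a threshold of 0.05. Per-library CPM are TMM-scaled, and a log2 fold change is given with its SE. Same-numbered libraries were not paired. Alternatives were DESeq2 1.42.0, median-ratio size factors, no filter, all 10 libraries, replicates 2 and 3, leaving out each library, replicate blocks and a length and GC correction (lowess span 0.3). The test was also run on simulated counts drawn with the spread of this fit, which cannot show whether that spread is right. GENCODE M21 (mm10) gave coordinates and transcript lengths. Every synthetase found could be named, and of each partner list up to 4 genes with the smallest p in a comparison. Overlapping genes were named from the annotation. Protein sequences were not analysed here. A few items are not reported here.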

Additional observations from a re-analysis of the deposited data

Results flagged for a closer look

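The BDNF response differed between the viruses, by the test of the difference itself, in 2 genes of the list of eIF2 kinases and the ATF4 pathway and in none of the 37 synthetases. Slc7a11, the light chain of the cystine-glutamate exchanger, was at 4.67 and 6.05 CPM in H2BE+BDNF, 4.96 and 5.16 CPM in H2BE, 9.44 and 10.9 CPM in BDNF and 2.88 and 3.84 CPM in Control, and the log2 BDNF response under the H2BE virus minus that under the control virus was -1.59 ± 0.34 (adjusted p = 0.0431, edgeR). Sesn2, a stress-induced inhibitor of mTORC1 signalling, was at 81.5 and 74.2 CPM in H2BE+BDNF, 55.1 and 62.7 CPM in H2BE, 108 and 101 CPM in BDNF and 52.4 and 55.9 CPM in Control, with a difference of -0.54 ± 0.12 (adjusted p = 0.0449, edgeR, and 0.024 by DESeq2). Both calls were lost without either Control library or any one library of H2BE or H2BE+BDNF, where the differences ran from -1.78 to -1.32 for Slc7a11 and from -0.65 to -0.46 for Sesn2. Both were also lost with the length and GC correction (adjusted p = 0.215 for Slc7a11 and 0.22 for Sesn2, edgeR), under a replicate block with replicates 2 and 3 (0.0548 and 0.0665) and under a block with crossed numbers (0.0936 for each). With replicates 2 and 3 alone the Sesn2 call was lost (0.0541), and DESeq2 gave no adjusted p for Slc7a11.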

How the results depend on the processing

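Of the 25 calls of single synthetases, none changed sign in 424 alternative values. Among members not called, 163 of 2647 values did. With 2 distinct libraries a group, leaving 1 out leaves a lone library that is assumed to vary like the other groups, and leaving out a library of any group also moves the shared spread. The cause of a lost call was not tested beyond this. In BDNF against Control, 4225 genes were called, 2512 by DESeq2 and 6465 with all 10 libraries, and 2278 to 4499 when 1 library was left out. Cytosolic calls, 12 there, were 8 to 13 in all alternatives. Mitochondrial calls, 2 there, were 0 by DESeq2, 6 with all 10 libraries and 0 to 2 with 1 library left out. In H2BE+BDNF against H2BE, 3466 genes were called, 2226 by DESeq2 and 1818 to 4157 with 1 library left out. Cytosolic calls, 9 there, were 8 to 12 in the other alternatives and 5 to 11 with 1 library left out. The 1 mitochondrial call was lost (0 calls) by DESeq2, under both replicate blocks and with the length and GC correction, and 0 to 1 remained with 1 library left out.

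In H2BE against Control, 287 genes were called. The count was 559 without a filter on low counts, 1611 with all 10 libraries, 24 with the length and GC correction and 2 to 890 with 1 library left out, the lowest being 2 without Control replicate 1. The 1 cytosolic call became 0 with median-ratio size factors and with the length and GC correction, 2 with all 10 libraries, and 0 to 2 with 1 library left out. In H2BE+BDNF against BDNF, the 3 called genes became 216 without a filter, 15 by DESeq2, 24 with all 10 libraries, 1 with replicates 2 and 3, and 1 to 764 with 1 library left out. The 0 mitochondrial calls became 1 (Lars2) without a filter, and the 0 calls of each form became 0 to 1 with 1 library left out. For the difference of BDNF responses, the 155 called genes became 440 without a filter, 1169 with all 10 libraries, 349 with replicates 2 and 3, 4 with the length and GC correction, and 0 to 897 with 1 library left out. The cytosolic count of 0 became 1 (Wars1) with all 10 libraries and 0 to 1 with 1 library left out. The mitochondrial count of 0 became 1 (Lars2) without a filter and 0 to 1 with 1 library left out.

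Deviations of same-numbered libraries from their group means had correlations of -0.303 to -0.17. Some of these used replicate 3 of BDNF or Control, a subset of replicate 1. With 2 libraries a group they cannot settle whether replicate numbers pair the libraries. With a replicate block, called genes were 3693 in BDNF against Control, 3230 in H2BE+BDNF against H2BE, 140 in H2BE against Control, 119 in H2BE+BDNF against BDNF and 245 for the difference. With the block and replicates 2 and 3 they were 3507, 2950, 341, 48 and 344. Under both blocks, the cytosolic call in H2BE against Control became 0, the mitochondrial call in H2BE+BDNF against H2BE became 0, and Lars2 made 1 mitochondrial call in H2BE+BDNF against BDNF and 1 for the difference. A block with crossed numbers, chosen after seeing the data, gave 4886 genes in BDNF against Control, 3813 in H2BE+BDNF against H2BE and 0 for the difference, with 12, 10 and 0 cytosolic calls.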
